A study of Mus musculus with 4 samples.

Results

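The 41 genes described here lie on mouse chromosome 15, from Selenop on the centromere side to the Letmd1, Csrnp2 and Dazap2 neighbourhood on the distal side. They were chosen by name as well expressed housekeeping and growth genes, with no Hox gene among them, because the chromosome as a whole had a raised signal in 1 embryonic stem (ES) cell clone, clone #9. The ratio of clone #9 to parental ES cells therefore chose them, and that ratio is given as a description with no test. They were read by 59 probes, and 40 of the 41 genes were well above background on all 4 arrays, among 508 such genes of chromosome 15 and 12552 in all. Rrm2b, a ribonucleotide reductase subunit induced by p53, was dim in every line (not well above background) and enters no count below.

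The mRNA of 4 mouse ES cell lines was measured, with 1 microarray for each line. Parental ES cells were the EB3 line. Nup98-HoxA9 ES clone #1 and clone #9 expressed a FLAG-tagged fusion of the N-terminal part of human Nup98, a nucleoporin, to the C-terminal part of HoxA9, a homeodomain protein, which is a fusion found in leukaemia. The HoxA9-Ct ES line expressed the HoxA9 part alone. The transgenes were carried into the genome by a Tol2 transposon vector with hygromycin B selection, and resistant colonies were picked, so each transgenic line stands for 1 clone. The 4 arrays shared a slide and a scan.

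ES cells in culture can acquire extra chromosomes, and RNA from an extra chromosome usually follows the number of gene copies in part, because some genes are held back by feedback on their own transcript or protein. Many of the genes named here encode parts of complexes whose other parts lie on other chromosomes, such as the ribosome, the translation initiation factor eIF3 and cohesin. These arrays measure RNA only. The number of copies of chromosome 15 was not measured here, and its part in the results was not tested.

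Values below are log2 signals relative to the 75th percentile of each array, so 0 is the signal at that percentile. A ratio is the difference between 2 lines on that scale. Counts of genes higher or lower use a fold threshold of 0.32 on that scale, which is a description of size and no test. The 75th percentile was at an intensity of 229 in parental ES, 222 and 253 in clones #1 and #9 and 209 in HoxA9-Ct ES, the share of spots well above background was 49.9% to 53.0%, and no spot was saturated. Since each line had 1 array, no spread between cultures is available. The SD between spots of the same probe on 1 array was 0.064 to 0.072 (median over 241 probes with 10 spots each), which covers the technical error within an array only. All 14 pluripotency genes examined, among them Pou5f1 and Nanog, were well above background in every line. Their levels were not all unchanged. In clone #9, 6 of the 14 were lower than in parental ES past the threshold, led by Dppa3 (-1.62) and Lin28a (-1.22), and 1 was higher. Among all genes, 19.2% were lower past it in clone #9 and 20.7% higher.

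The chosen genes as a group stood higher in clone #9 and close to parental ES in the other lines. Their median log2 ratio to parental ES was 0.35 in clone #9 (interquartile range 0.22 to 0.56, lowest -0.31, highest 2.57), -0.013 in clone #1 (-0.15 to 0.14) and -0.031 in HoxA9-Ct ES (-0.16 to 0.074). In clone #9, 22 of the 40 were above parental ES past this threshold and 0 were below it past the threshold. Among all 12552 genes, 20.7% were higher past the threshold in clone #9 and 19.2% lower past the threshold, but since this ratio chose the genes, nothing is read from the contrast. In clone #1, which did not enter the choice, 4 genes were higher past the threshold and 2 lower past the threshold, against 14.8% and 14.1% of all genes. In HoxA9-Ct ES the counts were again 4 and 2, against 10.2% and 7.07% of all genes. Both of these comparisons share the parental array with the one that chose the genes.

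**Figure D1:**
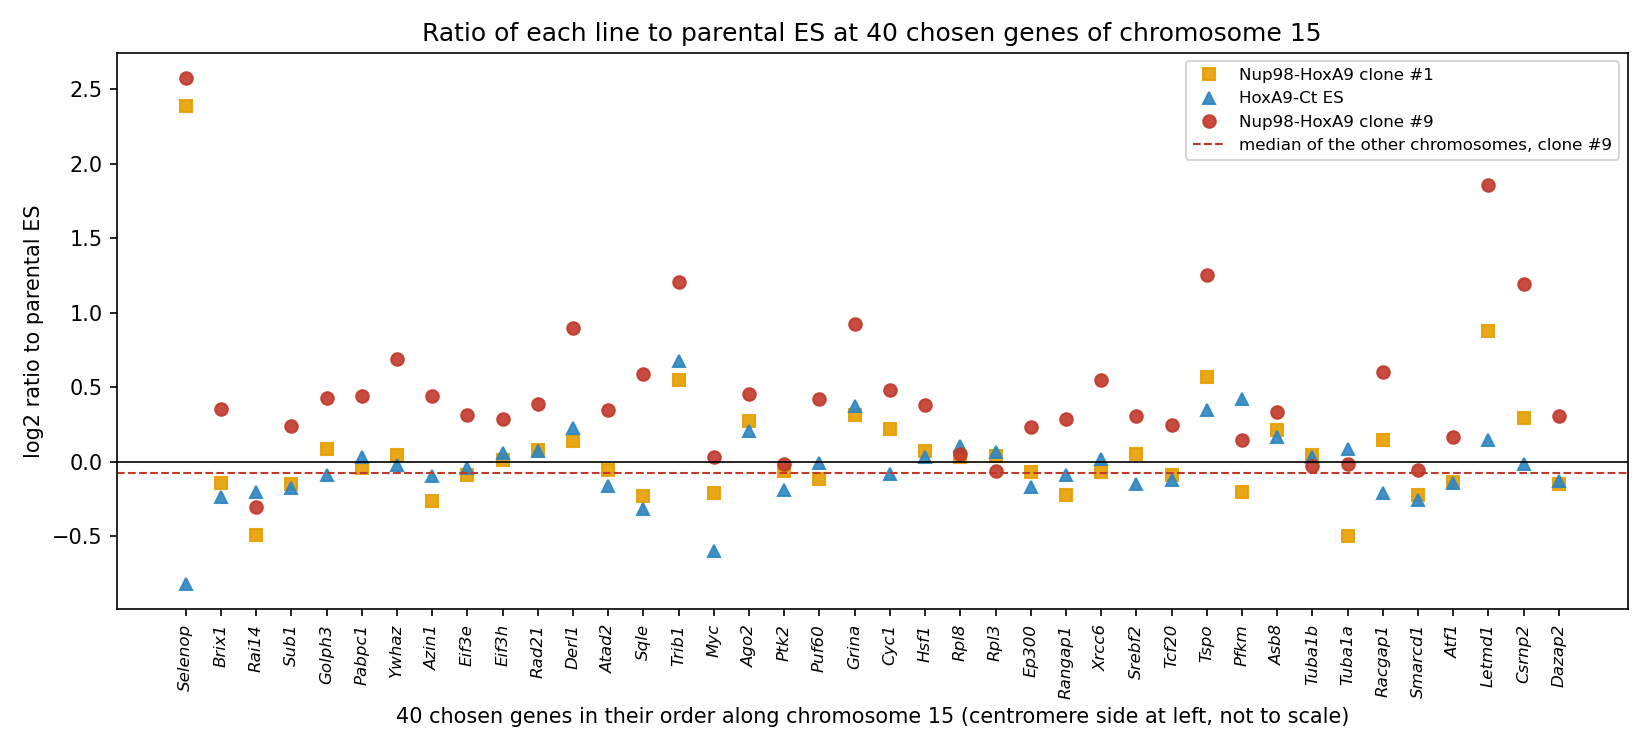
Log2 ratio to parental ES (vertical axis) of the 40 chosen genes well above background, in their order along chromosome 15 (horizontal axis), with 1 point per line from 1 array each. Of the clone #9 points, 21 lie between 0.2 and 0.6 and 5 above 2-fold, while the clone #1 and HoxA9-Ct ES points scatter around 0; the dashed line is the median of the other chromosomes in clone #9, -0.076.

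Chromosome 15 as a whole stood higher in clone #9, and no other chromosome with at least 100 measured genes did. The chromosome was itself chosen for this rise, so its values in clone #9 are a description and no independent check. The 468 other genes of chromosome 15 had a median ratio of 0.41 in clone #9 against 0.019 in clone #1 and 0.036 in the HoxA9-Ct line, and 285 of them were higher past the threshold in clone #9 while 21 were lower past the threshold. The 12044 genes of other chromosomes had medians of -0.076, -0.015 and -0.0012 in the same order. The medians of the 19 other chromosomes with at least 100 genes ranged from -0.12 to -0.047 in clone #9. Chromosome 8 stood at -0.081 (685 genes) and chromosome 11 at -0.061 (1076 genes). The median of all chromosome 15 genes less that of the other chromosomes was 0.48 in clone #9.

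**Figure D2:**
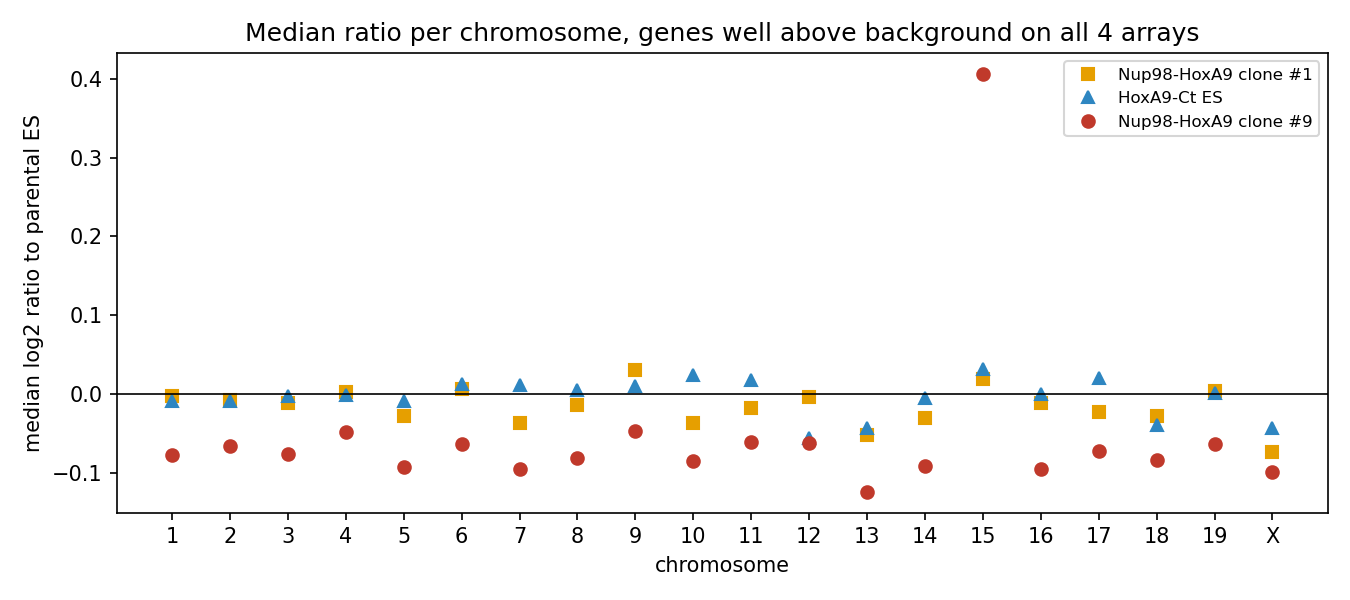
Median log2 ratio to parental ES (vertical axis) over the genes well above background on all 4 arrays, for each chromosome with at least 100 such genes, with 1 point per line. In clone #9 chromosome 15, which was chosen for this rise, stands at 0.41 and the 19 others shown between -0.12 and -0.047.

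Setting clone #9 against the other lines is no independent check, since each such ratio holds the clone #9 array through which the genes were chosen, and nothing is read from it. Set against clone #1, the chosen genes had a median log2 ratio of 0.37 in clone #9, with 38 of 40 higher and 23 higher past the threshold. Set against HoxA9-Ct ES the median was 0.42, with 34 of 40 higher and 27 higher past the threshold. Of the 4 lines, clone #9 had the highest level for 32 of the 40 genes, parental ES for 3, clone #1 for 1 and HoxA9-Ct ES for 4. Clone #9 was the highest line for 25.3% of all genes, for 78.0% of the other chromosome 15 genes, and for 17.6% to 26.3% of the genes of each other chromosome with at least 100 genes, and this rank too holds the array that chose the genes. The gap from clone #9 to the next line, over the 32 genes, had a median of 0.33 (range 0.034 to 0.98), and 31 of them exceeded 0.072, the highest of the 4 arrays' median SDs between spots. That SD is noise of spots within an array, so it understates the noise of a difference between arrays, and it leaves out the spread between cultures. The scanner software's own error gives a ratio a larger error, 0.20.

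The median ratios of the chosen genes were similar along the chromosome, while fewer were past the threshold toward the distal side. Divided into 3 stretches by gene order, the chosen genes had median ratios in clone #9 of 0.39 on the centromere side (13 genes, Selenop to Atad2), 0.38 in the middle (13 genes, Sqle to Rangap1) and 0.31 on the distal side (14 genes, Xrcc6 to Dazap2). Of the genes in these stretches, 9, 7 and 6 were higher past the threshold in clone #9. In the same stretches clone #1 stood at -0.041, 0.032 and -0.011.

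Among genes of protein synthesis, translation factors were highest in clone #9 and the ribosomal protein genes stood level with parental ES on the scale used here. The 6 genes had a median ratio of 0.30 in clone #9, and 2 were higher past the threshold. Pabpc1, which encodes the cytoplasmic poly(A)-binding protein, had a level of 7.49 in parental ES, 7.44 and 7.93 in clones #1 and #9 and 7.52 in HoxA9-Ct ES, so clone #9 stood 0.41 above the next line and the remaining lines lay within 0.1 of each other.

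Eif3e and Eif3h encode subunits of eIF3, which brings the small ribosomal subunit to mRNA. Eif3e lay at 4.78 in parental ES, 4.69 and 5.09 in clones #1 and #9 and 4.74 in HoxA9-Ct ES. Eif3h lay at 7.86, 7.87, 8.14 and 7.91 in the same order of lines. Clone #9 was the highest line for both genes, by 0.31 and 0.23, yet both ratios to parental ES (0.31 and 0.29) fell just short of the threshold. Brix1, a factor of large-subunit ribosome assembly, had a ratio of 0.36 in clone #9 at its brighter probe and -0.36 at its dimmer one, so its direction was not settled.

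The ribosomal protein genes Rpl8 and Rpl3 were among the strongest signals. Rpl8 had levels of 9.85 in parental ES, 9.89 and 9.91 in clones #1 and #9 and 9.96 in HoxA9-Ct ES, and Rpl3 had 9.16, 9.20, 9.10 and 9.23. The lines did not separate for either gene on this scale, with ratios in clone #9 of 0.052 and -0.062. Both stood above the listed ribosomal protein genes off chromosome 15, which lay between -0.25 and -0.086 in clone #9. A second, dimmer Rpl8 probe had a ratio of 0.21. Ribosomal protein genes have many near-identical processed copies in the genome, so the source of their signal is uncertain.

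The 11 genes of transcription and chromatin had a median ratio of 0.24 in clone #9 against -0.091 in clone #1 and -0.14 in the HoxA9-Ct line, and 5 of them were higher past the threshold in clone #9. Rad21, the cohesin subunit that closes the ring around DNA, had a level of 5.68 in parental ES, 5.76 and 6.07 in clones #1 and #9 and 5.75 in HoxA9-Ct ES. Puf60, a splicing factor, had 4.29, 4.18, 4.72 and 4.28. Hsf1, the regulator of the heat shock response, had 2.07, 2.14, 2.44 and 2.10. For these 3 genes clone #9 stood 0.31 to 0.43 above the next line. Atad2, a chromatin ATPase with a bromodomain, had a ratio of 0.35 in clone #9, against -0.055 in clone #1 and -0.16 in HoxA9-Ct ES.

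Lower ratios in clone #9 were measured for the coactivator Sub1 (0.24), the acetyltransferase gene Ep300 (0.23), the transcriptional coregulator Tcf20 (0.24) and the cAMP-responsive factor Atf1 (0.16). In all 4 of these clone #9 was the highest line. Smarcd1, which encodes a SWI/SNF remodeller subunit, had a ratio of -0.057 in clone #9, above clone #1 (-0.23) and HoxA9-Ct ES (-0.26) but not above parental ES.

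Myc, the growth-promoting transcription factor of chromosome 15, did not stand apart in clone #9. Its level was 1.59 in parental ES, 1.38 and 1.62 in clones #1 and #9 and 0.99 in HoxA9-Ct ES. The ratio of 0.034 in clone #9 is smaller than the SD between the 2 spots of its probe, which was 0.15 in parental ES and 0.13 in clone #9, and HoxA9-Ct ES was the low line, at -0.60. In the limma fit the HoxA9-Ct ES difference did not pass the test, as for all 41 genes in that comparison.

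The 3 genes of lipid and sterol metabolism had a median ratio of 0.59 in clone #9. Sqle, the squalene epoxidase of cholesterol synthesis, had a level of 5.01 in parental ES, 4.78 and 5.60 in clones #1 and #9 and 4.69 in HoxA9-Ct ES. Clone #9 stood 0.59 above parental ES, while both other transgenic lines lay below parental ES. Srebf2, which encodes the transcription factor that drives sterol synthesis genes, had 1.55, 1.61, 1.86 and 1.40, a ratio of 0.31 in clone #9. Tspo, an outer mitochondrial membrane protein that binds cholesterol, had 1.91, 2.48, 3.16 and 2.26. All 3 transgenic lines stood above parental ES at Tspo, with clone #9 at 2.38-fold and ratios of 0.57 in clone #1 and 0.35 in HoxA9-Ct ES.

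Among the genes of energy, redox and nucleotide metabolism, Letmd1 had the largest gap between clone #9 and the next line, 0.98. Letmd1, a mitochondrial membrane protein gene, had a level of -0.90 in parental ES, -0.030 and 0.95 in clones #1 and #9 and -0.76 in HoxA9-Ct ES. Clone #9 was 3.62-fold above parental ES, clone #1 stood between them and HoxA9-Ct ES was near parental ES. Cyc1, the cytochrome c1 of respiratory complex III, had 6.66, 6.88, 7.15 and 6.58, and Azin1, an inhibitor of the antizymes that restrain polyamine synthesis, had 3.01, 2.75, 3.45 and 2.91. Clone #9 was the highest line for both, and the 3 probes of Azin1 gave the same sign. Pfkm, the muscle-type phosphofructokinase of glycolysis, was instead highest in HoxA9-Ct ES, with 2.91, 2.71, 3.06 and 3.33. The HoxA9-Ct ES ratio of 0.42 exceeded the SD between the 10 spots of its probe, which was at most 0.065 on any of the 4 arrays. That SD leaves out the spread between cultures, and the difference did not pass in the limma fit.

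Csrnp2, a nuclear protein gene counted with transcription, lies next to Letmd1 and had a level of -0.66 in parental ES, -0.37 and 0.53 in clones #1 and #9 and -0.68 in HoxA9-Ct ES. Its ratio in clone #9 was 1.20. The neighbouring genes were not raised alike. Slc11a2 on the centromere side had a ratio of -0.081 in clone #9, and on the distal side Tfcp2 had 0.81, Dazap2 0.31 and Smagp -0.0037. Dazap2, a small adaptor protein gene, had levels of 4.73, 4.58, 5.04 and 4.60, with clone #9 highest by 0.31.

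The 8 genes of signalling and stress adaptation had a median ratio of 0.56 in clone #9, and 6 of them were higher past the threshold. Trib1, a pseudokinase scaffold that directs proteins to degradation, had a level of 1.05 in parental ES, 1.59 and 2.25 in clones #1 and #9 and 1.72 in HoxA9-Ct ES. All 3 transgenic lines were above parental ES, with ratios of 0.55, 1.20 and 0.67, and a second probe gave 0.58, 1.22 and 0.67. Grina, an endoplasmic reticulum and Golgi membrane protein gene, followed the same order with ratios of 0.31, 0.93 and 0.38.

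Derl1 and Ywhaz were higher past the threshold in clone #9 alone. Derl1, a component of endoplasmic reticulum-associated degradation, had levels of 1.65 in parental ES, 1.78 and 2.54 in clones #1 and #9 and 1.87 in HoxA9-Ct ES. Its other probe, of similar signal, had a smaller ratio, 0.31 against 0.90, which fell just short of the threshold. Ywhaz, the zeta member of the 14-3-3 adaptor proteins, had 2.21, 2.25, 2.90 and 2.19, and its 3 probes had ratios of 0.69, 0.84 and 0.44 in clone #9. Golph3, a Golgi phosphoinositide-binding protein gene, had a ratio of 0.43, and Asb8, a SOCS-box protein gene, had 0.33 and was the gene nearest above the threshold. Eif3e, at 0.31, was the nearest below it. Ptk2, the focal adhesion kinase gene, stood at -0.015.

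The RNA silencing, DNA repair and nuclear transport genes were all highest in clone #9. Xrcc6, the Ku70 subunit of DNA end joining, had a level of 5.54 in parental ES, 5.47 and 6.09 in clones #1 and #9 and 5.56 in HoxA9-Ct ES, a gap of 0.53 to the next line. Ago2, the Argonaute that cleaves target RNA, had 3.66, 3.93, 4.11 and 3.86. Clone #9 exceeded the next line by 0.18 at Ago2, less than at Xrcc6. Rangap1, the GTPase activator of Ran at the nuclear pore, had 4.68, 4.46, 4.97 and 4.59, and its ratio of 0.29 was short of the threshold.

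The cytoskeleton and division genes were the group that did not stand higher in clone #9 as a whole, with a median ratio of -0.022 over 4 genes. Tuba1b, the alpha-tubulin gene with the strongest signal of the set, had levels of 10.3, 10.4, 10.3 and 10.4, and Tuba1a had 6.43, 5.94, 6.42 and 6.52. Clone #9 and parental ES lay within the SD between spots at both, although these alpha-tubulin genes have near-identical coding sequence and their probes may share signal. Rai14, an actin-associated protein gene, was below parental ES in all 3 transgenic lines, with levels of 3.89, 3.40, 3.58 and 3.69. Racgap1, the centralspindlin GTPase-activating protein needed for cytokinesis, was the exception, with 4.52 in parental ES, 4.67 and 5.12 in clones #1 and #9 and 4.31 in HoxA9-Ct ES.

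In all, 6 of the 40 genes were not above parental ES in clone #9 (Rai14, Rpl3, Smarcd1, Tuba1b, Tuba1a and Ptk2), 12 lay between parental ES and the threshold, 10 were more than 1.5-fold higher and 5 more than 2-fold higher. The sign of the small ratios rests on the scaling, since in the deposited series table, whose array constants differ, Rai14 was the only one of the 6 below parental ES. Relative to the median of the other chromosomes, 39 of the 40 genes stood above 0 and Rai14 alone below it. The 5 genes over 2-fold were Selenop, Letmd1, Tspo, Trib1 and Csrnp2. The 4 genes higher past the threshold in clone #1 were Selenop, Letmd1, Tspo and Trib1, all of which are also among these 5.

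The ratio in clone #9 was lower where the signal was strongest. Over all chromosome 15 genes, the median ratio was 0.42 at mean log2 signals below -1 (102 genes), 0.53 from -1 to 1 (127 genes), 0.38 from 1 to 3 (119 genes), 0.37 from 3 to 5 (103 genes), 0.38 from 5 to 7 (41 genes) and 0.22 above 7 (16 genes). The genes of other chromosomes also had lower medians at stronger signals, at 0.081, -0.019, -0.11, -0.12, -0.13 and -0.14 in the same ranges. Chromosome 15 stood least far above them in the dimmest range, below -1, and in the strongest, above 7. The 6 chosen genes above 7 were Tuba1b, Rpl8, Rpl3, Eif3h, Sub1 and Pabpc1, with a median of 0.14. Strong spots can compress ratios, and the part of this in the result was not tested.

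**Figure D3:**
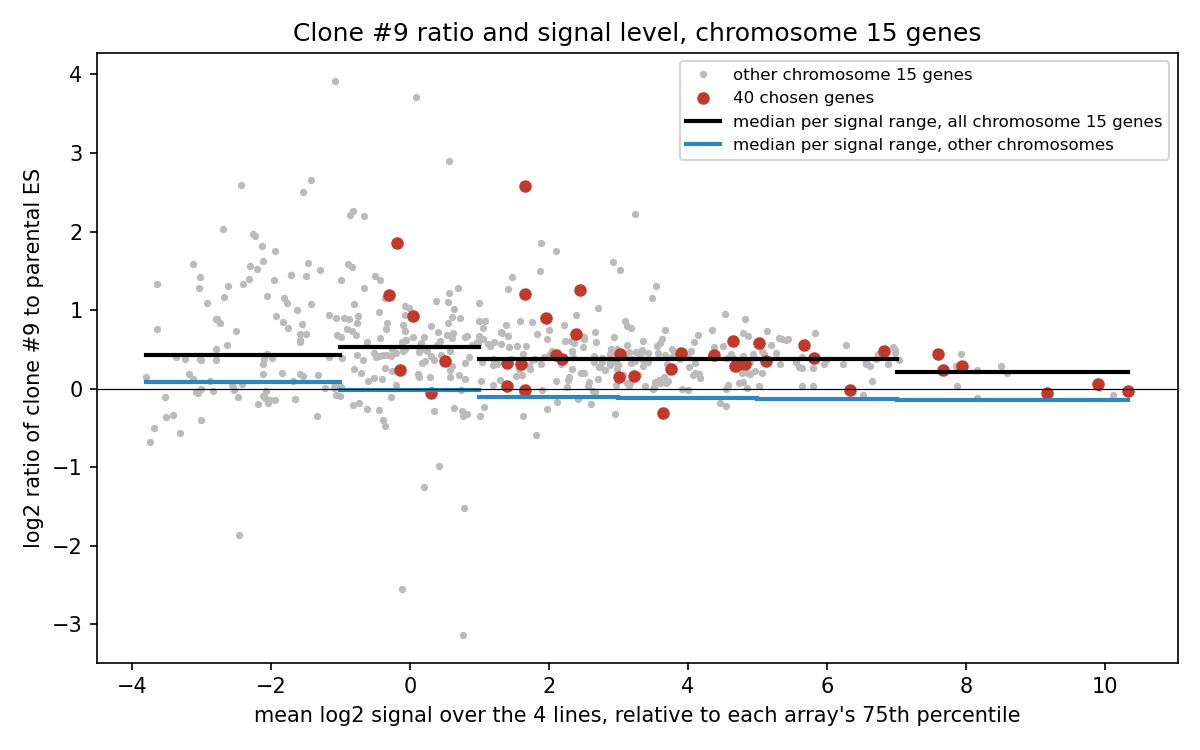
Log2 ratio of clone #9 to parental ES (vertical axis) against the mean log2 signal over the 4 lines (horizontal axis) for chromosome 15 genes well above background, with the chosen genes in red. Horizontal bars are medians per range of signal, and chromosome 15 lies above the other chromosomes in every range. Its median is 0.22 above a signal of 7 against 0.53 between -1 and 1, where the other chromosomes stand at -0.14 and -0.019.

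Probes of the same gene mostly gave like ratios. Of 15 chosen genes with several probes well above background, 13 had the same sign at all of their probes in clone #9, the exceptions being Brix1 and Tuba1b, and the median SD between probes was 0.054. The scanner software's own error, about 10% for a spot, gives a ratio an error of 0.20, and 17 of the 40 ratios exceeded 2 such errors.

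Selenop was the chosen gene with the widest differences between lines, and in both clones alike its level exceeded parental ES by over 2-fold, which held for no other chosen gene. Selenop encodes selenoprotein P, a secreted carrier of selenium made mostly by the liver. Its level was 0.62 in parental ES, 3.004 and 3.19 in clones #1 and #9 and -0.20 in HoxA9-Ct ES. The clones lay 0.19 apart, both far above the other lines.

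In the limma fit with both clones as 1 group, Selenop rose by 2.48 ± 0.56 (SE) against parental ES (adjusted p = 0.00138, limma, 2 clones and 1 array) and by 3.30 ± 0.56 against HoxA9-Ct ES (adjusted p = 1.4e-06, limma). It was the only one of the 41 genes to pass in either comparison. Across all 55562 probes, 1.41% passed against parental ES and 1.36% against HoxA9-Ct ES. For HoxA9-Ct ES against parental ES, 0 of the 41 passed by limma and 0 had an unadjusted p below 0.05, while 0.405% of all probes passed. The difference between the 2 clones is the only source of spread, with 1 residual degree of freedom a probe, and the fit pooled it over all probes (prior SD 0.45, prior degrees of freedom infinite), so every probe has the same SE and the p-values do not rest on the spread of Selenop itself. The comparisons with the clones hold the array that chose the genes. No Selenop call was made when dim probes were left out or arrays were quantile normalized, nor against parental ES in the deposited series table. Letmd1 had an unadjusted p below 0.05 in both comparisons that hold the clones, with differences of 1.36 ± 0.56 (adjusted p = 0.38, limma) and 1.22 ± 0.56 (adjusted p = 0.56, limma).

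Most markers of primitive endoderm were, like Selenop, higher in both clones. Gata6, a transcription factor of that lineage, had a level of -2.00 in parental ES, 0.24 and 0.53 in clones #1 and #9 and -3.38 in HoxA9-Ct ES. Gata4 had -2.50, -0.72, -0.53 and -3.67, and Sox17 had -2.80, -0.91 and -0.66 with HoxA9-Ct ES not above background. Gata6 and Gata4 had the same order of lines as Selenop. Of the 10 listed genes, 8 were higher past the threshold in both clones. Lama1 (0.18 and 0.062 in clones #1 and #9) and Lamb1 (-0.44 and 0.040) were not, and Sox7 in HoxA9-Ct ES exceeded parental ES by 0.24. The 8 include Pdgfra, which was dim in the parental line (-4.05), so the size of its rise is uncertain. Of the 6 list genes off chromosome 15 and well above background on all arrays, 4 were higher past the threshold in each clone. Among all 12552 genes, 14.8% were higher past it in clone #1 and 20.7% in clone #9. The share past it in both clones together was not computed. Of the 10 listed endoderm genes, 9, 10, 10 and 6 were well above background in parental ES, clone #1, clone #9 and HoxA9-Ct ES. Lama1 alone stood at 5.07, 5.25, 5.13 and 4.01 in the same order. The log2 of the summed level of the 10 genes was 5.82, 5.90, 6.002 and 5.15. Their part in the Selenop result was not tested, and in such bulk RNA a change in the number of cells of a type and a change in RNA per cell cannot be told apart.

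**Figure D4:**
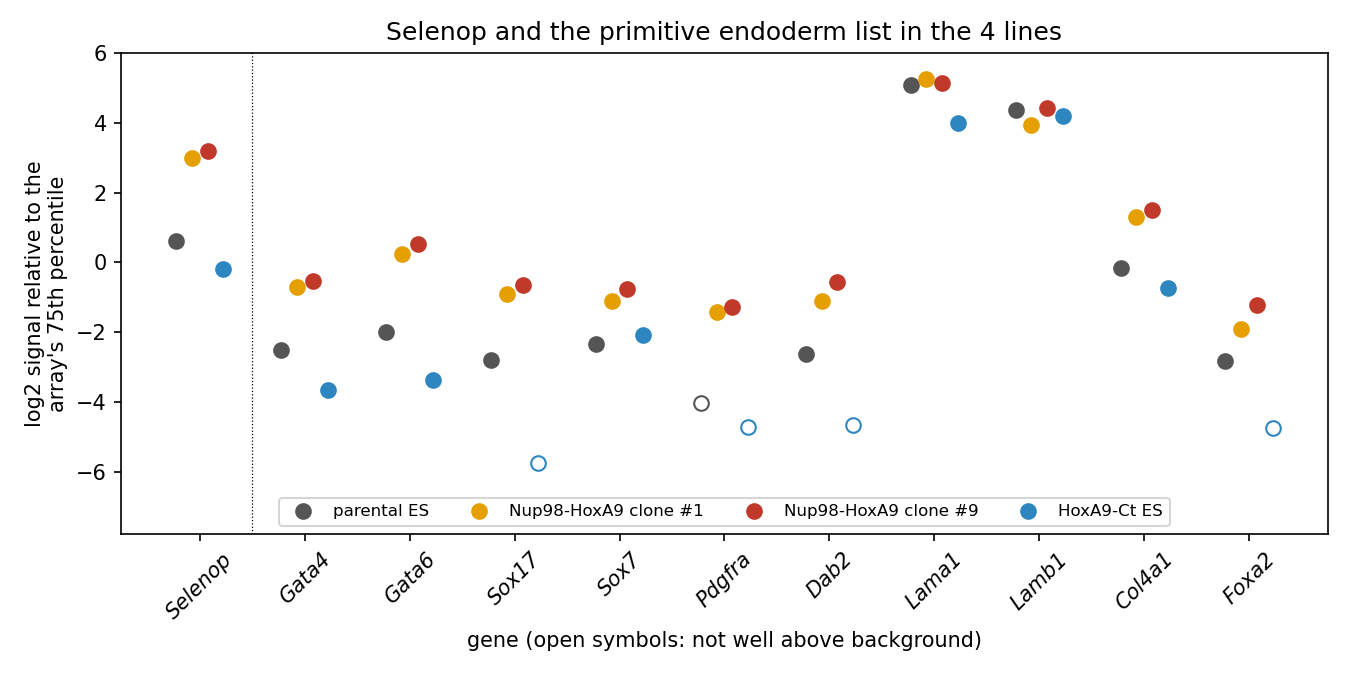
Log2 signal relative to the 75th percentile of each array (vertical axis) of Selenop and the 10 genes of the primitive endoderm list (horizontal axis) in the 4 lines, 1 array each; open symbols are not well above background. Selenop, Gata4, Gata6 and Sox17 stand higher in both clones and lowest in HoxA9-Ct ES, while Lama1 and Lamb1 do not stand higher past the threshold in the clones.

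Other lineage lists also differed between lines. The log2 summed level in parental ES, clone #1, clone #9 and HoxA9-Ct ES was 10.5, 10.5, 10.3 and 10.5 for pluripotency, 6.47, 5.88, 5.60 and 6.67 for primed epiblast, and 3.81, 4.51, 5.30 and 3.69 for trophectoderm, whose markers Krt8 and Krt18 lie on chromosome 15. The 2-cell-like genes stood at 5.19, 3.96, 6.19 and 5.08, and the fibroblast genes at 2.94, 3.23, 4.13 and 3.41 with 3 or 4 of 6 well above background. Mesoderm genes stood at 3.30, 3.44, 3.09 and 3.55 and neural genes at 3.26, 3.12, 3.47 and 3.73. A summed level mostly follows its strongest genes. In the same order of lines, Kdr alone stood at 3.14, 3.24, 2.88 and 3.39 in the mesoderm list. Tubb3 alone stood at 3.06, 2.80, 3.27 and 3.55 in the neural list. For the pluripotency list, Dppa5a alone stood at 9.22, 9.41, 9.20 and 9.36. For the fibroblast list, Thy1 alone stood at 2.89, 3.18, 4.06 and 3.36. In the trophectoderm list, Tfap2c alone stood at 2.84, 3.31, 3.02 and 2.35, and Krt18 alone at 2.48, 3.23, 4.70 and 2.55. Eomes and Tfap2c were the 2 trophectoderm genes off chromosome 15 well above background on all arrays. Of these, 2 were higher past the threshold in clone #1 and 0 in clone #9. Of the 2-cell-like genes, Zfp352 was instead lower in clone #9, with a ratio of -0.88. The part of these lists in the ratios of the chosen genes was not tested.

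Outside the chosen genes, chromosome 15 held larger differences in clone #9 in both directions. Ly6a and Ly6c1, surface antigens of the Ly6 family, had ratios of 3.92 and 3.71, and Krt8, an epithelial keratin gene, had 2.90. These genes were also higher in clone #1, by 2.43, 2.14 and 1.94, and in HoxA9-Ct ES, by 1.52, 1.45 and 0.62. The lowest ratios were those of Grhl2, an epithelial transcription factor gene (-3.14), Dpys, a pyrimidine catabolism enzyme gene (-2.56), and Ppp1r1a, a phosphatase inhibitor gene (-1.86), and clone #1 had -2.43, -2.29 and -1.72.

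The Hox-C cluster, which lies on this chromosome, had another pattern. At its genes well above background in a clone, clone #1 stood at or above clone #9. Hoxc6 was at least 71.4-fold above parental ES in clone #1 and at least 12.4-fold in clone #9, and Hoxc4 at least 65.0-fold and 16.6-fold, parental ES being not well above background at either. Hoxc13, measured on all arrays, was 2.59-fold and 2.47-fold higher. Hoxc5 was at least 6.54-fold and 1.71-fold higher, and Hoxc9 at least 3.29-fold and 2.92-fold. Hoxc8 was well above background in clone #1 only, and Hoxc10, Hoxc11 and Hoxc12 in no line. Baalc, a gene associated with acute leukaemia, was at least 2.76-fold higher in clone #1 and at least 9.68-fold higher in clone #9.

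Genes on other chromosomes that work with the chosen genes, or share their pathway, stood near the other genes of those chromosomes in clone #9. Over 12 lists of such partners, 138 genes off chromosome 15 were well above background on all arrays, and their median ratio was -0.12 in clone #9 against -0.081 in clone #1 and -0.0020 in the HoxA9-Ct line. In clone #9, 10 of them (7.25%) were higher past the threshold and 19 (13.8%) lower, both below the 19% and 19.8% of all genes of the other chromosomes. The list median was below the -0.076 of the other chromosomes for 9 of the 12 lists, for 3 of them by under 0.05. That value covers all signal levels, and the lists were not matched for signal. The 8 list genes that lie on chromosome 15 outside the chosen set had a median of 0.28 in clone #9 against -0.14 in clone #1 and -0.015 in the HoxA9-Ct line. The highest in clone #9 were Eif3d at 0.44 and Nipbl, the cohesin loader, at 0.41. The lowest were Tuba1c at -0.12 and Eif3l at 0.038.

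The eIF3 subunits off chromosome 15 (9 genes) had a median of -0.20 in clone #9, and 1 of them, Eif3j1, was lower past the threshold at -0.50. On chromosome 15, Eif3e, Eif3h, Eif3d and Eif3l stood at 0.31, 0.29, 0.44 and 0.038. The other translation and ribosome biogenesis genes (21 genes) had -0.16, with 0 higher and 3 lower (Wdr12 -0.40, Nop2 -0.35, Eif4e -0.33). Cohesin and its regulators (10 genes) had -0.23, beside 0.39 for Rad21, with Esco2, a cohesin acetyltransferase gene, at -0.50. All 3 medians were below that of the other chromosomes in clone #9, which covers all signal levels. At mean log2 signals of 3 to 5, 5 to 7 and above 7, genes of the other chromosomes had medians of -0.12, -0.13 and -0.14. The lists were not matched for signal.

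The cholesterol synthesis genes and SREBP2 targets (22 genes) were at 0.067 in clone #9 against -0.13 in clone #1 and -0.23 in the HoxA9-Ct line. In clone #9, 5 (22.7%, against 19% of the genes of the other chromosomes) were higher past the threshold, led by Nsdhl (0.47), Mvd (0.44) and Msmo1 (0.39), and 1, Idi1 (-0.35), was lower. Tubulins (8 genes) were at 0.028, with Tubb2a 0.73, Tubb6 0.62 and Tubg1 0.33 as the 3 higher genes. These were the 2 lists with medians above 0.

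Myc partners and targets (17 genes) were at -0.19 in clone #9 and -0.20 in clone #1, with 3 genes lower in clone #9. Ccnd2, a D-type cyclin gene, had -2.37, Mycn -1.68 and Mnt, a Myc antagonist gene, -0.58. The small RNA machinery (5 genes) had the lowest median of the lists, -0.54, with 4 lower, among them Ago1 (-0.78), Dgcr8 (-0.54) and Dicer1 (-0.54), while Ago2 on chromosome 15 stood at 0.45.

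Heat shock genes (10 genes) were at -0.083 in clone #9, with the inducible chaperone gene Hspa1a alone past the threshold at 1.14, and -0.34 in clone #1. DNA end joining genes (8 genes) were at -0.090, with Dclre1c -0.82, Polm -0.35 and Lig4 -0.33. The p300 and SWI/SNF partners (10 genes) were at -0.26, with Arid1a -0.47, Smarcd3 -0.39 and Actl6a -0.34. Glycolysis genes (13 genes) were at -0.023, with Hk1 at 0.55, and the 7 genes of ribonucleotide reductase and polyamines were at -0.11 with 0 past the threshold. The 13 housekeeping references, a further list that holds no partners, stood at -0.13 in clone #9, with Gusb at 0.44 and Actb at -0.37.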

How the data were processed

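RNA from the 4 lines was labelled with Cy3 and hybridised by the authors to 1-colour Agilent mouse expression arrays, 1 per line. The deposited scanner files hold processed signal intensity, background-subtracted and detrended by Feature Extraction 10.10.1.1. The deposited series table holds the same intensity values multiplied by 1 constant per array, and how that constant was chosen is not given in the sources used here. Here signals were divided by the 75th percentile of the non-control spots of each array and expressed as log2, spots of a probe were averaged without outlier spots, and a gene was read at its brightest probe. Symbols and gene order came from RefSeq through the accessions on the array (26762 of 55681 probes named). The array was annotated on another build, so no coordinates are given.

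Groups were taken from the labels, with the clones as the only replicates. limma 3.58.1 (R 4.3.3) was fitted over 55562 probes in 1 model of 3 groups, with Benjamini-Hochberg adjustment at 0.05. It was also run on simulated data in which every probe had the same SD. The fit assumes the same, so that run could not test the pooled spread. Python 3.11.15 was used for the rest. Counts past the fold threshold used 0.32 on the log2 scale. Where parental ES was dim, a fold is a bound computed against the higher of its own signal and the dimmest probe well above background. Alternatives were normexp with an offset of 50 (on the median signal of each spot, as its mean was not used here), quantile and median scaling, the series table, the mean over probes, no filter or a filter on dim probes, a trended robust variance, other folds and other references.

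The chosen genes, the partner lists and the lineage lists were chosen with earlier results of these data known. The genes named are all 41 chosen genes, the 3 highest and 3 lowest other genes of chromosome 15 in clone #9, the Hox-C genes with Baalc, and up to 3 genes per partner list past that threshold. Tfcp2, Slc11a2 and Smagp were named for their place beside Letmd1, and Eif3d, Eif3l, Nipbl, Tuba1c and the lineage markers after their values were seen.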

Additional observations from a re-analysis of the deposited data

Results flagged for a closer look

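Selenop moved in opposite directions in the transgenic lines relative to parental ES, with clone #1 at 2.39, clone #9 at 2.57 and HoxA9-Ct ES at -0.82 (log2 ratio). With 1 array a line the difference between single lines was not tested. The limma comparison of the clones as a group with HoxA9-Ct ES gave 3.30 ± 0.56 (SE, pooled over all probes), which passed. It holds the clone #9 array through which the genes were chosen. No call was made there with quantile normalization or the filter on dim probes. The limma comparison of HoxA9-Ct ES with parental ES did not pass.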

How the results depend on the processing

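The median ratio of the chosen genes in clone #9 stayed above 0 under every alternative run, at 0.43 with quantile normalization, 0.45 in the series table and 0.29 with the array median as the scale. The excess of chromosome 15 over the other chromosomes in clone #9 ranged from 0.43 to 0.50. Between 18 and 30 genes were higher past the 0.32 threshold under other scalings, filters and probe rules, 27 with ratios centred on the other chromosomes, 32 at 1.1-fold and 10 at 1.5-fold. Clone #9 was the highest line for 31 to 37 genes. Brix1 changed sign, to -0.00067, with the mean over its probes.

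The limma calls depended on the processing. Against parental ES, 4 genes passed with normexp and 4 with a trended robust variance (Tspo, Selenop, Letmd1 and Trib1 in both), and 0 with quantile normalization, the series table or the filter on dim probes (1, 4 and 1 at an unadjusted p below 0.05). Against HoxA9-Ct ES, 2 passed with normexp and 2 with the trended variance (Selenop and Letmd1), and 0 with quantile normalization or the filter (1 each unadjusted). The cause was not tested. The model could not be fitted without either clone, because no residual degrees of freedom remain. No paired analysis was possible because the groups share only replicate number 1, and that number pairs no cultures. The number of arrays limits the precision.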
